A study of Homo sapiens with 9 samples.

Results

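Nectins, claudins, occludin and their cytoplasmic scaffolds build the lateral cell-cell junctions of epithelia, and 10 genes of this set were followed in human MCF10A cells: NECTIN1, NECTIN2, NECTIN3, NECTIN4, AFDN, CLDN1, CLDN4, CLDN7, OCLN and TJP1. They were found by gene symbol in the authors' deposited tables, and all 10 of 10 were present among 13052 genes. The set was chosen by a measured value, the low log2 fold change of NECTIN1 in XRCC1-KO cells, so that value is given as a description and supports nothing by itself.

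MCF10A is a non-transformed mammary epithelial line. Per the labels, poly(A) RNA was sequenced in 3 libraries of cells that express Cas9 and carry a control knockout (Control-KO, whose genotype label is WT), 3 of APE1-KO cells and 3 of XRCC1-KO cells, both knockouts being derived from the Cas9-expressing line. All groups grew in a medium with horse serum, EGF, cholera toxin, insulin and hydrocortisone. The labels do not say whether a knockout is a single clone or a pool, nor whether the libraries of a group are separate cultures. The p-values therefore rest on the spread among these libraries, which may be technical. The values are the authors' own comparisons of each knockout with Control-KO. Per-library values were not analysed here: the depth is unknown and no SD over replicates can be given for a gene. The targeted gene APEX1 fell, at -1.50 on the log2 scale for APE1-KO in the authors' deposited tables (adjusted p = 7.17e-08 by the deposited F test). XRCC1 stood at 0.14 (p = 0.235) for XRCC1-KO in the authors' deposited tables, so its transcript does not check that label, and each direction given for XRCC1-KO rests on the label.

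Nectins are immunoglobulin-like adhesion molecules that pair across neighbouring cells, and afadin (AFDN) ties their tails to the actin cytoskeleton, where they help to start adherens junctions with cadherins. Tight junctions form apical to these. Claudins make the paracellular barrier and its ion pores, occludin (OCLN) is a second membrane component, and ZO-1 (TJP1) is the scaffold that holds both to actin. In mammary epithelium such junctions seal the luminal from the basal side.

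None of the 10 genes passed an adjusted p of 0.05 in either knockout, and none differed between the knockouts at that threshold. In XRCC1-KO cells 5 members lay above 0 and 5 below, with NECTIN1 counted. Their median log2 fold change was -0.01 against 0.00 over all genes, and their range ran from -0.38 to 0.36. Without NECTIN1, whose value chose the set, 5 lay above 0 and 4 below, with a median of 0.002. Of those above 0, NECTIN2 and TJP1 rounded to 0.00. In APE1-KO cells 4 of the 10 members lay above 0 and 6 below, with a median of -0.03 against 0.00 over all genes. The range there was narrower, from -0.13 to 0.10. By the authors' F test 1 member, NECTIN1, had an unadjusted p under 0.05 in XRCC1-KO, and none had in APE1-KO. Over all genes 5.96% had such a p in XRCC1-KO (3.26% higher and 2.70% lower) and 1.45% in APE1-KO (0.774% higher and 0.674% lower), with 0% and 0.00766% past the adjusted threshold. Since the set was chosen for NECTIN1, nothing is read from its count in XRCC1-KO.

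**Figure D1:**
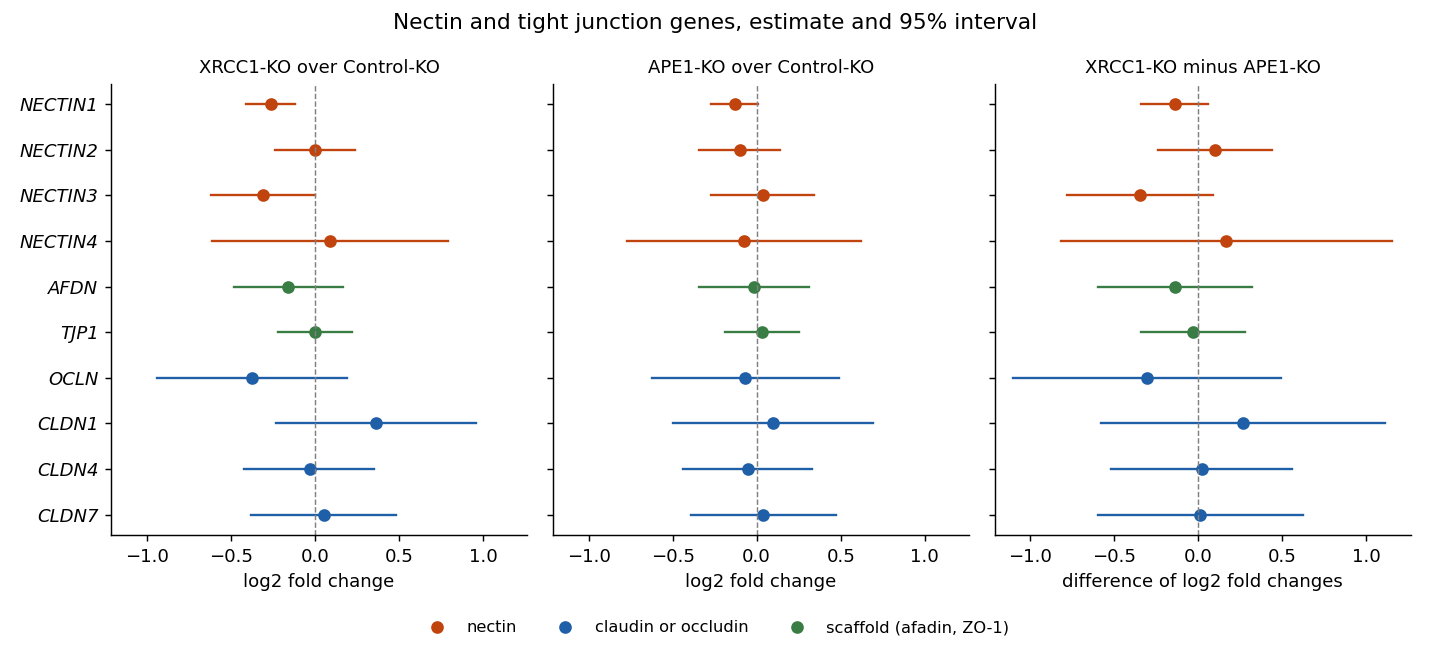
Log2 fold change of each gene (points) with its 95% interval (lines) in XRCC1-KO over Control-KO, APE1-KO over Control-KO, and as the difference of those values, coloured by protein family. The interval of NECTIN1 in XRCC1-KO, from -0.41 to -0.12, is the one that lies wholly on a side of 0, and the APE1-KO points sit between -0.13 and 0.10.

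Among the nectins, NECTIN1 and NECTIN3 had the lower values in XRCC1-KO cells, while NECTIN2 and NECTIN4 lay close to control. NECTIN1 (ENSG00000110400.6, hg19 chromosome 11, 119494120 to 119599794, minus strand) encodes the nectin that pairs preferentially with nectin-3 and is also an entry receptor for herpes simplex virus. Its log2 fold change for XRCC1-KO in the authors' deposited tables was -0.26, or 0.833-fold (95% interval 0.755 to 0.919), with an F test p of 0.00121 and an adjusted p of 0.76. That p ranked 18 of 13052, between those of MED12 (-0.51, p = 0.00108) and S100A3 (0.58, p = 0.00127) in the authors' list. As NECTIN1 chose the set, this rank is a description. By the same F test the lowest adjusted p over all genes in XRCC1-KO was 0.123. NECTIN1 was abundant, at a mean of 8.09 log2 CPM (library-scaled counts). In the authors' deposited APE1-KO table NECTIN1 stood at -0.13, or 0.916-fold (interval 0.83 to 1.01), with a p of 0.0751 and an adjusted p of 1. Both comparisons use the same control libraries, so the shared sign is not independent.

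NECTIN3 (ENSG00000177707.6, hg19 chromosome 3, 110788918 to 110994410, plus strand), the partner of nectin-1 and nectin-2 across cell contacts, stood at -0.31 for XRCC1-KO in the authors' deposited tables (0.808-fold, interval 0.652 to 1.00, adjusted p = 0.76, unadjusted p = 0.0509). For APE1-KO in the authors' tables it stood at 0.04 (interval -0.27 to 0.34, p = 0.795). It was less abundant than NECTIN1, at a mean of 4.46 log2 CPM. The NECTIN3 values for XRCC1-KO and APE1-KO lie on opposite sides of 0, with intervals that overlap.

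NECTIN2 (ENSG00000130202.5, hg19 chromosome 19, 45349432 to 45392485, plus strand), also a ligand of lymphocyte receptors, stood at 0.00 for XRCC1-KO in the authors' deposited tables (interval -0.24 to 0.24, p = 0.984). For APE1-KO in the authors' tables it stood at -0.10 (interval -0.34 to 0.14, p = 0.395). NECTIN4 (ENSG00000143217.7, hg19 chromosome 1, 161040785 to 161059389, minus strand), a nectin of skin and of many carcinomas, had the lowest mean abundance of the set, at 3.09 log2 CPM. It stood at 0.09 for XRCC1-KO in the authors' deposited tables (interval -0.61 to 0.79) and at -0.08 for APE1-KO in the authors' deposited tables (interval -0.77 to 0.62). For NECTIN4 a change of up to 1.62-fold around the estimate lies inside the interval, against 1.18-fold for NECTIN2 and 1.10-fold for NECTIN1.

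The scaffolds showed no called change. AFDN (ENSG00000130396.16, hg19 chromosome 6, 168227602 to 168372703, plus strand), which binds nectin tails, stood at -0.16 for XRCC1-KO in the authors' deposited tables (interval -0.48 to 0.17, p = 0.319) and at -0.02 for APE1-KO (interval -0.34 to 0.31, p = 0.906). TJP1 (ENSG00000104067.12, hg19 chromosome 15, 29991571 to 30261068, minus strand), encoding ZO-1, stood at 0.00 for XRCC1-KO in the authors' deposited tables (interval -0.22 to 0.22, p = 0.98) and at 0.03 for APE1-KO (interval -0.19 to 0.25, p = 0.751). The TJP1 intervals were the narrowest after those of NECTIN1, and they leave room for changes of about 1.16-fold either way.

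Among the tight junction membrane proteins, OCLN and CLDN1 held the extremes of the set in XRCC1-KO cells, on opposite sides of 0. CLDN1 (ENSG00000163347.5, hg19 chromosome 3, 190023490 to 190040264, minus strand), a barrier-forming claudin, stood at 0.36 for XRCC1-KO in the authors' deposited tables, or 1.29-fold (interval 0.852 to 1.94, p = 0.212, adjusted p = 0.774). OCLN (ENSG00000197822.6, hg19 chromosome 5, 68788119 to 68853931, plus strand) stood at -0.38 by the authors' tables, or 0.771-fold (interval 0.522 to 1.14, p = 0.176, adjusted p = 0.77). On the log2 scale both intervals cross 0, from -0.23 to 0.96 for CLDN1 and from -0.94 to 0.19 for OCLN. For APE1-KO in the authors' tables CLDN1 stood at 0.10 (interval -0.50 to 0.69) and OCLN at -0.07 (interval -0.62 to 0.49). A pseudogene copy, OCLNP1, is annotated in GENCODE release 29 and is not a row of the tables, so the OCLN value is uncertain as far as reads were shared with it.

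CLDN4 (ENSG00000189143.8, hg19 chromosome 7, 73213872 to 73247014, plus strand), a claudin of tight simple epithelia that binds a Clostridium perfringens toxin, stood at -0.03 for XRCC1-KO in the authors' deposited tables (interval -0.42 to 0.35, p = 0.867) and at -0.05 for APE1-KO (interval -0.44 to 0.33, p = 0.779). CLDN7 (ENSG00000181885.14, hg19 chromosome 17, 7163222 to 7167302, minus strand), which also lies along the basolateral membrane, stood at 0.05 for XRCC1-KO in the authors' deposited tables (interval -0.38 to 0.48, p = 0.80) and at 0.04 for APE1-KO (interval -0.39 to 0.47, p = 0.847). In GENCODE release 29 CLDN7 overlaps ELP5 on the other strand and a further coding gene on its own strand, and the sources used here do not say how the counting treated strand. Because the samples are bulk RNA, fewer cells with a transcript and less transcript per cell cannot be told apart for any of these genes.

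The level of each transcript was compared per length, as mean log2 CPM less the log2 of the longest coding transcript of GENCODE release 29 in kilobases. On this scale of level, CLDN7 (5.85) and NECTIN1 (5.54) were highest, followed by TJP1 (4.40), AFDN (4.35), NECTIN2 (3.91), CLDN4 (3.54), CLDN1 (2.84) and NECTIN3 (2.59), with NECTIN4 (1.28) and OCLN (1.16) lowest. The order is a mean over all groups, has no spread in these files, and shifts with the transcript chosen: NECTIN1 has 3 coding transcripts from 1059 to 5840 bases. By mean abundance without length, NECTIN1 lay above 95.3% of all genes and NECTIN4 above 26.0%.

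The members also differed in how precisely they were measured. The standard error of a log2 fold change, recovered from the deposited F statistic, depends on abundance and on the spread between libraries of a group. The choice of the set did not rest on it except through NECTIN1. Standard errors of the XRCC1-KO and APE1-KO comparisons lay within 5% of each other for 97.6% of the 10832 genes with both. The ratios are therefore not read as particular to XRCC1-KO. All 4 claudin and occludin genes had larger standard errors than most genes of like abundance, meaning genes within 0.5 log2 CPM. In the XRCC1-KO comparison the standard error of CLDN1 was 0.279, which is 2.52 times the median of 0.111 over genes of like abundance. That of CLDN7 was 0.203, or 2.27 times the median, that of OCLN 0.265, or 2.06 times, and that of CLDN4 0.181, or 1.84 times. NECTIN4 (2.12 times) and AFDN (1.72 times) were also high, and NECTIN1 (0.76) lay below the median. NECTIN3 (1.27), TJP1 (1.15) and NECTIN2 (1.12) lay less far above it. Their standard errors were larger than those of 79.3%, 67.7% and 64.2% of genes of like abundance.

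Thus 6 of 10 members had a ratio above 1.5, against 10.3% of all genes. None of the 13 other measured membrane proteins of tight junctions and none of the 11 adherens junction core genes exceeded that ratio, with highest values of 1.32 and 1.49, while 3 of 24 plaque and polarity genes and 1 of 9 proteases and inhibitors did. Of the ligands, nectin-like proteins and afadin partners 4 of 14 exceeded it, with the afadin partner LMO7 at 3.07, above every member. Of the regulators of epithelial state 4 of 16 did, with the epithelial transcription factor ELF3 at 5.93, so high ratios also occurred in other lists. Among the epithelial markers of the line 4 of 10 exceeded it, including KRT14 at 2.42 and KRT17 at 2.16, keratins of basal cells. These ratios are descriptions, given without a test.

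**Figure D2:**
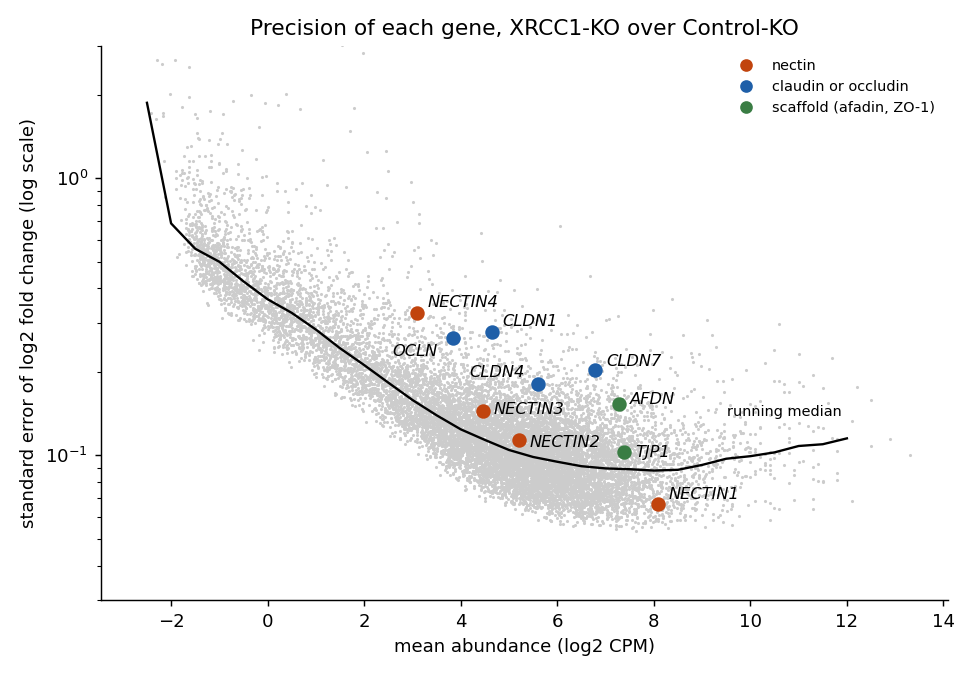
Standard error of the XRCC1-KO log2 fold change (vertical axis, log scale) against mean abundance in log2 CPM for all genes (grey), with the running median (line) and the 10 members coloured by family. CLDN1, CLDN7, OCLN, CLDN4, NECTIN4 and AFDN sit 1.72 to 2.52 times above the median of genes of like abundance, and NECTIN1 sits below it.

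The direct comparison of XRCC1-KO with APE1-KO, in which the control libraries cancel, called none of the members. At an unadjusted p under 0.05, 0.743% of all genes differed, and 0.00766% passed the adjusted threshold, none of them a member in either case. NECTIN3 had the largest difference in size, -0.35 (interval -0.78 to 0.09, p = 0.111 from Student's t on the authors' deposited values, adjusted p = 1), followed by OCLN at -0.31 (interval -1.10 to 0.49), CLDN1 at 0.27 (interval -0.58 to 1.11) and NECTIN4 at 0.17 (interval -0.82 to 1.15). For NECTIN1 the difference was -0.14 (interval -0.34 to 0.06). It contains the XRCC1-KO value that chose the set, so it is given as a description and nothing is read from it.

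These intervals leave out the covariance that shared controls give and are therefore wide. With the covariance expected for 3 shared control libraries of equal precision, NECTIN3 had an interval from -0.65 to -0.04. Its unadjusted p by Student's t on the authors' deposited values was 0.03 (adjusted p = 0.73). NECTIN1 had an unadjusted p of 0.0571 by that test, again as a description only. In that setting 5.46% of all genes had an unadjusted p under 0.05, so 1 of 10 members is not set apart from the background. The differences of NECTIN2 (0.10), AFDN (-0.14), CLDN4 (0.02), CLDN7 (0.01) and TJP1 (-0.03) all had intervals across 0 in both settings.

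Over all genes, log2 fold changes in XRCC1-KO were lower for longer transcripts, and the members spread across that range of lengths. The median was 0.135 in the shortest of 10 bins of transcript length and -0.094 in the longest, against 0.002 and 0.035 in APE1-KO. From its length and GC content a median of -0.11 would be given to OCLN, -0.10 to TJP1, -0.09 to AFDN, -0.06 to NECTIN3, -0.03 to NECTIN1 and 0.09 to CLDN7. After subtraction of that trend NECTIN1 stood at -0.24 (p = 0.00272 by Student's t on the authors' deposited values, adjusted p = 0.94), NECTIN3 at -0.25, OCLN at -0.27, AFDN at -0.07, TJP1 at 0.10 and CLDN1 at 0.41. The AFDN value thus moved from -0.16 to -0.07, that of NECTIN1 kept most of its size, and that of CLDN1 rose from 0.36 to 0.41. The signs of NECTIN2 and CLDN7, near 0 before, turned to -0.05 and -0.03. With the median length of a gene's coding transcripts in place of the longest, NECTIN1 stood at -0.34 (adjusted p = 0.215) and CLDN1 at 0.45. In that setting AFDN stood at -0.16, as before subtraction, so its shift depended on the transcript chosen.

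**Figure D3:**
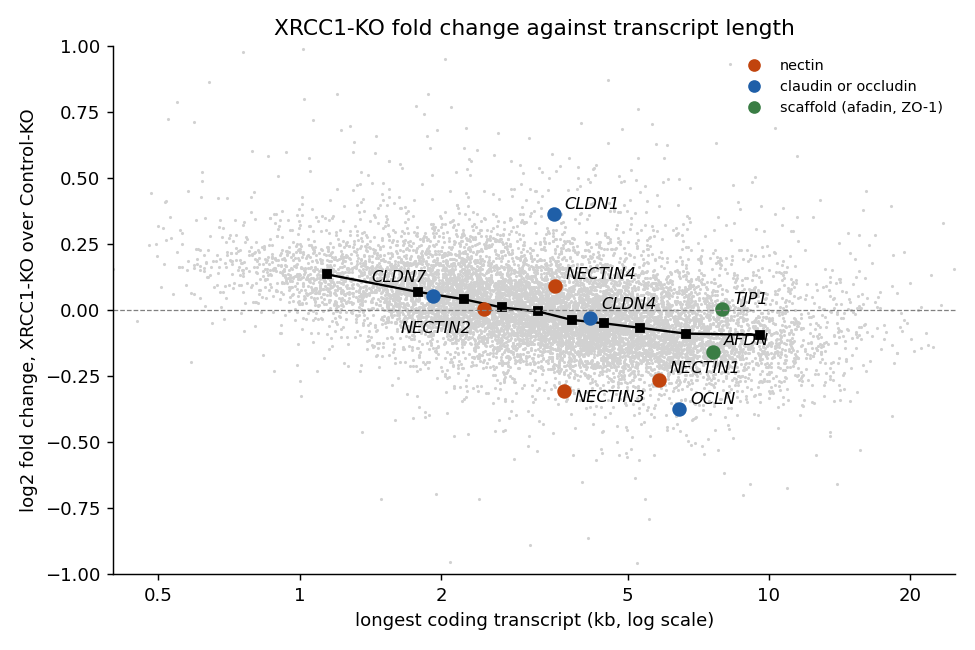
XRCC1-KO log2 fold change against the length of the longest coding transcript (log scale) for nuclear genes with mean log2 CPM not under 1 (grey), with medians of 10 length bins (squares) and the members coloured by family. The bin medians descend from 0.135 to -0.094; NECTIN1, NECTIN3 and OCLN lie below them and CLDN1 above.

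The neighbouring genes of the junction, in 6 lists written from general knowledge, showed no called change either. Over all 10 lists, markers included, 101 genes were measured. At an unadjusted p under 0.05, 3 of them were higher and 0 lower in XRCC1-KO, and 0 were higher and 1 lower in APE1-KO. Such a p was held by 5.96% of all genes in XRCC1-KO and 1.45% in APE1-KO, so these genes are not set apart from the background. Of 13 other tight junction membrane proteins measured, none had an unadjusted p under 0.05 in either table, and their median was -0.07 in XRCC1-KO and -0.01 in APE1-KO, against 0.00 over all genes in each. F11R, the junctional adhesion molecule JAM-A, stood at -0.12 (p = 0.119) for XRCC1-KO in the authors' deposited tables, and CLDN11, at a mean of only 0.26 log2 CPM, at 0.62 (p = 0.056). Of 24 plaque and polarity genes, PRKCZ, the atypical protein kinase C zeta of the polarity complex, had an unadjusted p under 0.05 for XRCC1-KO in the authors' deposited tables, at 0.24 (p = 0.0264, adjusted p = 0.76). TJAP1, a tight junction-associated protein, stood at 0.17 (p = 0.0593) for XRCC1-KO in the authors' deposited tables. MAGI1 and MAGI3, membrane-associated scaffolds, stood at -0.49 (p = 0.0647) and -0.24 (p = 0.0652) there by the authors' F test.

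Of 14 measured ligands, nectin-like proteins and afadin partners, CD96, a lymphocyte receptor of the poliovirus receptor (PVR), had an unadjusted p under 0.05 for XRCC1-KO in the authors' deposited tables, at 0.75 (p = 0.012, adjusted p = 0.76). Its mean abundance was 0.24 log2 CPM. PVR itself, a nectin-like protein that binds nectin-3, stood at 0.10 in XRCC1-KO and 0.01 in APE1-KO. SSX2IP, an afadin-binding protein, stood at -0.17 (p = 0.12) for XRCC1-KO in the authors' deposited tables. Over this list the median was 0.05 in XRCC1-KO and 0.04 in APE1-KO, with none called.

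The 11 adherens junction core genes had values from -0.15 to 0.15 in XRCC1-KO and from -0.08 to 0.06 in APE1-KO, with none at an unadjusted p under 0.05. E-cadherin (CDH1), the cadherin of epithelial adherens junctions, stood at -0.07 (interval -0.31 to 0.16) for XRCC1-KO in the authors' deposited tables, alpha-catenin (CTNNA1) at 0.01 (interval -0.11 to 0.13) and p120-catenin (CTNND1), which stabilises cadherins at the membrane, at -0.15 (p = 0.0868). Of 16 transcriptional regulators of epithelial state none had an unadjusted p under 0.05. KLF5, a zinc finger factor of basal epithelium, stood at -0.20 (p = 0.0504) for XRCC1-KO in the authors' deposited tables. TP63, the basal p63 factor, stood at -0.26 (p = 0.0942) for XRCC1-KO in the authors' deposited tables. GRHL2, an activator of junction genes, stood there at -0.11 (interval -0.29 to 0.07). SNAI2, the repressor Slug, stood there at 0.11 (interval -0.14 to 0.36). Other regulators of the list lay on either side of 0 in XRCC1-KO, with OVOL2 at 0.20, OVOL1 at 0.11 and ESRP1 at -0.125. Over the 16 regulators, 10 lay above 0 and 6 below in XRCC1-KO, with a median of 0.06. Of 9 proteases and inhibitors, the sheddases ADAM17 (-0.16, p = 0.0605) and ADAM10 (-0.17, p = 0.109), the latter known to cleave nectin-1, were not called for XRCC1-KO in the authors' tables. MMP9, a matrix metalloproteinase, had an unadjusted p under 0.05 for APE1-KO in the authors' deposited tables, at -0.51 (p = 0.0457, adjusted p = 1). Over all genes 0.674% were lower at such a p in APE1-KO. With the length and GC trend removed, by the longest or the median transcript, 0 list genes were lower at that p in APE1-KO.

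**Figure D4:**
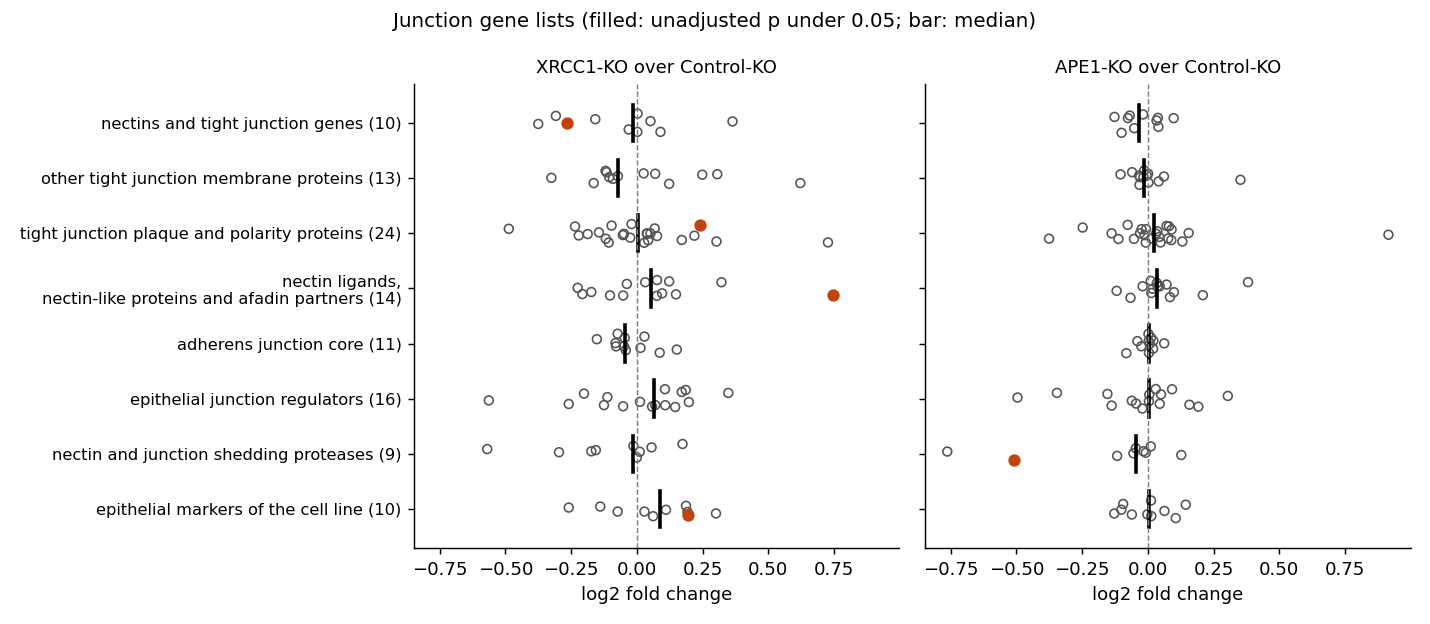
Log2 fold change of every measured gene (circles) of the 10-gene set, the 6 junction lists and the epithelial markers, with the number measured in brackets, in XRCC1-KO and APE1-KO; filled circles have an unadjusted p under 0.05 and bars mark medians. The medians shown lie between -0.07 and 0.09 in XRCC1-KO and between -0.05 and 0.04 in APE1-KO.

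By the pair of log2 fold changes in XRCC1-KO and APE1-KO, genes among the 5 most like NECTIN1 of 11131 with a symbol and with mean log2 CPM not under 1 included RBM47 (-0.26 and -0.13), SCNN1G (-0.26 and -0.12), MEX3A (-0.28 and -0.12) and BDKRB2 (-0.28 and -0.14). These are an RNA-binding protein, a subunit of the epithelial sodium channel, another RNA-binding protein and the bradykinin B2 receptor. Likeness was the distance in the plane of those values, from 0.003 to 0.0142, and the comparisons share their controls. All these distances lie under the standard error of NECTIN1 in XRCC1-KO, 0.0666. By the authors' F test the p of these genes for XRCC1-KO ranged from 0.0543 for RBM47 to 0.417 for SCNN1G, against 0.00121 for NECTIN1. As the match used the value that chose the set, the likeness and this contrast are descriptions only.

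The label of the cells was checked against markers. All 10 epithelial markers were measured, at mean abundances from 6.34 log2 CPM for EPCAM to 12.1 for KRT5, a basal keratin. None was called in either knockout. In XRCC1-KO ITGB4, an integrin of hemidesmosomes, stood at 0.20, with an unadjusted p of 0.032 by the authors' F test. Over all genes 5.96% had such a p under 0.05 in XRCC1-KO. Of the markers of other cell types, 2 of 7 for fibroblasts, 3 of 6 for leukocytes and 1 of 6 for endothelium were rows of the tables, none with an unadjusted p under 0.05. The highest of these was CD68 at 4.38 log2 CPM. Medians in XRCC1-KO and APE1-KO were -0.01 and -0.20 for the fibroblast markers, and -0.40 and -0.27 for the leukocyte markers. The leukocyte medians are the values of CD14, at a mean of 1.61 log2 CPM (XRCC1-KO interval -1.12 to 0.33). CD68, the more abundant, stood at -0.02 and -0.04. KDR, the endothelial receptor measured, had a mean of only -0.385 log2 CPM. It stood at -0.45 (interval -1.80 to 0.89) and -0.42 (interval -1.76 to 0.92). The part of these cell types in the members' values was not tested.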

How the data were processed

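Per the submitters' processing notes, Trim Galore, Salmon 1.4.0, edgeR and hg19 were used, with no order, settings, gene filter or model given in the sources used here. The authors' deposited tables, 1 per knockout, hold a log2 fold change over Control-KO, a mean log2 CPM that is equal in both tables and an F statistic (a score without unit), per the file headers. The authors also give a p-value, its adjusted value (false discovery rate) and a −log10 column of the p-value. The members, lists and tests were chosen with earlier results of these data known.

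From these values a standard error was taken as the absolute log2 fold change over the square root of F (from the other table where F was under 0.01). The 95% intervals used Student's t. For the members in each knockout its degrees of freedom came from F and p where F was at least 3. Otherwise, and for list genes and the difference between knockouts, the median of 15.2 was used. XRCC1-KO minus APE1-KO was tested with no covariance, adjusted over 13052 genes by the Benjamini-Hochberg method (scipy 1.17.1). Leaving out the covariance makes the standard error too large. Simulated data were used beforehand to check the test both with and without covariance. The trend with length and GC content was a median regression on splines (statsmodels 0.14.6) over 11175 genes, with GENCODE release 29 transcripts. Alternatives were a minimum of 1 on mean log2 CPM, the Benjamini-Yekutieli adjustment, median-centring, the trend removed, the covariance of shared controls and a normal distribution. Named genes are all members, up to 4 of each list with the smallest p in a table, the 5 genes most like NECTIN1, of which 1 is not reported here, and the targeted genes. PVR, CDH1, CTNNA1, GRHL2, SNAI2, KRT14, KRT17, KRT5, EPCAM, LMO7, ELF3, MED12 and S100A3 were named outside that rule, after their values were seen.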

Additional observations from a re-analysis of the deposited data

How the results depend on the processing

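No member was called under any setting: over all members, comparisons and settings the lowest adjusted p was 0.215. The counts of members and of list genes called stayed at 0 in both knockouts and in their difference, under each alternative run. In the main setting 0% of all genes were called in XRCC1-KO, and 0.00766% in APE1-KO and in the difference. Counts of 0 are near those shares and say nothing particular to these genes. The Benjamini-Yekutieli adjustment is stricter than the main one and could not add a call. Directions turned for the values below, with the cause not tested. With the length and GC trend removed, NECTIN2 in XRCC1-KO turned to -0.055 and CLDN7 to -0.035, and the differences XRCC1-KO minus APE1-KO turned to -0.102 for CLDN7 and 0.09 for TJP1. With the median transcript in place of the longest, an alternative chosen after seeing the data, the same values were -0.088, -0.036, -0.089 and 0.098, and the NECTIN2 difference turned from 0.10 to -0.012. The count of all genes with an unadjusted p under 0.05 and lower in XRCC1-KO went from 353 to 192 with the trend removed. With the median transcript it went to 321, so the size of that drop depended on the transcript chosen. In the difference between knockouts the covariance of shared controls raised such genes from 62 to 362 higher and from 35 to 351 lower. No paired analysis was possible because the files used here hold no values per library, which also left no way to leave out a replicate or to state depth.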
